A study of Arabidopsis thaliana with 6 samples.

Results

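The 9 genes described here belong to the nuclear-encoded part of the transcription machinery of mitochondria and plastids in Arabidopsis thaliana. They encode 3 phage-type RNA polymerases, RPOTM, RPOTP and RPOTMP, and 6 plastid sigma factors, SIG1 to SIG6. They were picked by locus, with no threshold on measured values, and are 9 of the 24193 rows of the deposited expression table. The RefSeq annotation lists SIG1, SIG3, SIG5 and SIG6 as SIGA, SIGC, SIGE and SIGF, RPOTM as MGP3 and RPOTP as SCA3. Whole seedlings were kept 6 days in the dark on vertical plates and compared between 2 genotypes with 3 biological replicates each, lettered A, B and C: the mutant lon1-1, in the gene of the mitochondrial protease LON1, and its wild type, Col-0 (wt). No other allele, treatment or agent is named for either genotype. Genotype was read from the sample titles, because the labels' genotype entry says Col-0 for the lon1-1 samples too.

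Plastid genes are read by 2 kinds of RNA polymerase. The plastid-encoded polymerase (PEP) is a bacterial-type enzyme whose core is made in the plastid, while its promoter choice comes from nuclear-encoded sigma factors and its activity depends on a set of nuclear-encoded associated proteins. The nuclear-encoded polymerases (NEP) are single-subunit enzymes related to those of bacteriophages: RPOTM works in mitochondria, RPOTP in plastids, and RPOTMP in both. In a dark-grown seedling the plastids are etioplasts, in which the photosynthesis genes that PEP transcribes are transcribed less than in light.

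The mutated gene itself was checked first. LON1 (AT5G26860) had 2.67, 2.61 and 2.79 FPKM in lon1-1 A, B and C, against 4.69, 4.7 and 4.69 FPKM in wt A, B and C, where FPKM counts the sequenced fragments of a gene relative to its transcript length and to the size of the library. Its log2 fold change was -0.63 (SE 0.0553, limma adjusted p = 3.58e-06), and all lon1-1 libraries lay below all wt libraries. Between 17861 and 18007 genes reached 1 FPKM in a library. The number of fragments behind each library, estimated from the spacing of low values, was 34500000 to 35250000 in lon1-1 and 32750000 to 33000000 in wt, so that 1 FPKM in a 2-kilobase transcript stood for 59.6 to 64.2 fragments. Over all genes tested, 44.7% were called higher and 32.3% lower in lon1-1, and the marker counts below are to be read against these shares. Markers of green cotyledons were lower in lon1-1 (6 of 6 tested), with sums of 545 to 566 FPKM in lon1-1 and 3120 to 3220 FPKM in wt, and none of them was at 0. Of 15 root markers 12 were tested, and 9 were higher. The 2 lower ones were SHR and CASP1 (log2 fold changes -0.46 and -0.82), and SCR did not pass (-0.07). The sums over the 15 root markers were 349 to 376 FPKM in lon1-1 and 395 to 428 FPKM in wt. The lower sum in lon1-1 came from CASP1, the most abundant root marker, which averaged 153 FPKM in lon1-1 and 272 FPKM in wt. WOX5, PLT1 and PLT2, which mark the root tip, stayed under 0.5 FPKM in every library. Of 4 etiolated seedling markers 2 were lower and 2 higher. PORA and PORB, the enzymes that make chlorophyllide in light, averaged 102 and 138 FPKM in lon1-1 and 181 and 306 FPKM in wt. ICL and MLS are glyoxylate cycle enzymes used while seed oil is broken down. ICL had 5720 to 6020 FPKM in lon1-1 and 1257 to 1337 FPKM in wt. MLS had 419 to 446 FPKM in lon1-1 and 60.01 to 62.33 FPKM in wt. The part of these marker differences in the results that follow was not tested.

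All 9 genes were expressed above the filter of 1 FPKM in at least 3 libraries and were tested. In lon1-1 all 3 polymerase genes and SIG5 were higher, SIG1 and SIG4 were lower, and SIG2, SIG3 and SIG6 did not pass the test. Among all 18308 genes tested, 77% passed limma's threshold of 0.05 after Benjamini-Hochberg adjustment, 44.7% as higher and 32.3% as lower in lon1-1, so that 4 higher and 2 lower among 9 genes (66.7% called) is near the background. The median log2 fold change was 0.06 over the 9 genes and 0.08 over all genes tested. When a change had to exceed 1.5-fold on the log2(FPKM + 1) scale, 8.33% of all tested genes were called higher and 7.69% lower, 16% in all, and of the 9 genes RPOTM alone was called. The added 1 shrinks the change of low genes, and all 9 genes lay below the median level of the genes tested. In mean FPKM RPOTP (1.65-fold), RPOTMP (1.57), SIG5 (1.58) and SIG4 (1.89, lower in lon1-1) differed by more than 1.5-fold too. SIG1, SIG2, SIG3 and SIG6 did not. The libraries of the genotypes did not overlap in 79.1% of all tested genes (45.7% higher and 33.4% lower in lon1-1), nor in 6 of the 9 genes, 4 of them higher and 2 lower. Because RNA came from whole seedlings, fewer cells of a type and less RNA per cell cannot be told apart in any of these values.

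**Figure D1:**
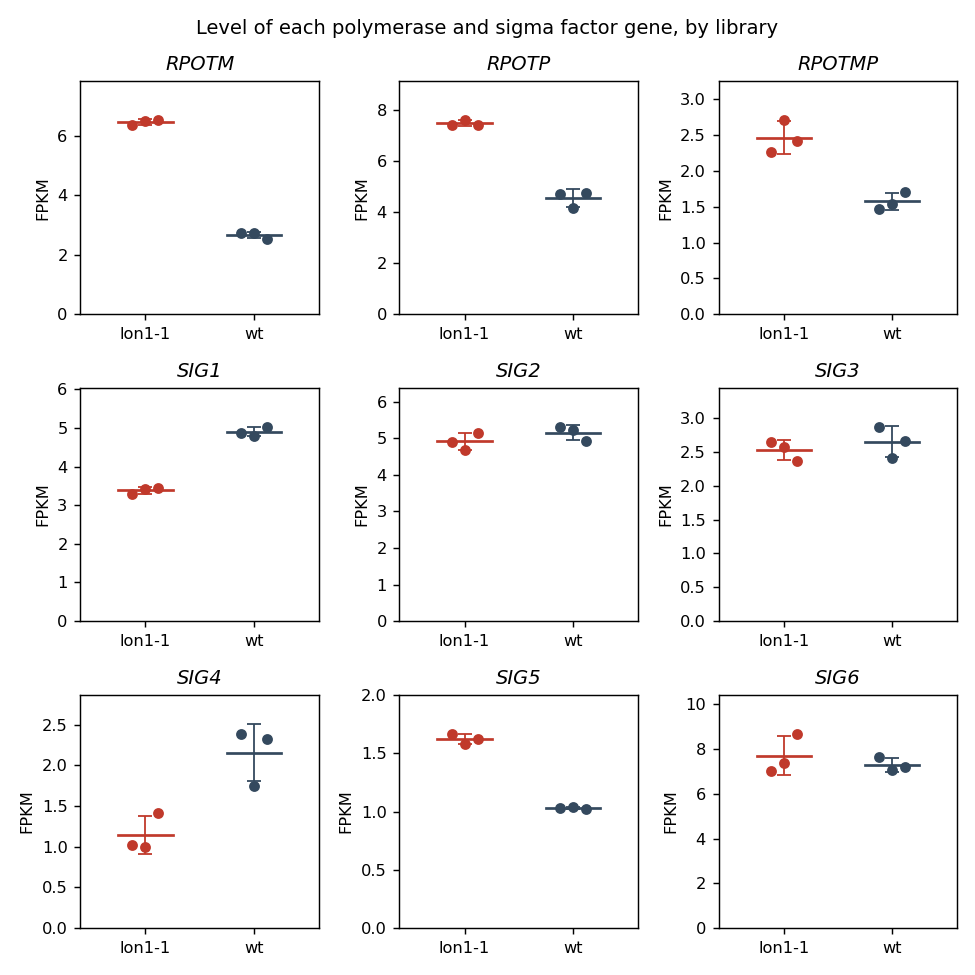
Level of each of the 9 genes in FPKM (y axis, from 0) in the 3 lon1-1 and 3 wt libraries (x axis); points are libraries, wide lines are means and bars are SD over 3 libraries. The RPOT genes and SIG5 lie higher in every lon1-1 library, SIG1 and SIG4 lie lower, and the points of SIG2, SIG3 and SIG6 overlap.

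RPOTM (AT1G68990, chr1:25934997-25940996 in TAIR10.1, minus strand), the polymerase that transcribes most mitochondrial genes, had 6.36, 6.5 and 6.54 FPKM in lon1-1 A, B and C, against 2.75, 2.72 and 2.55 FPKM in wt A, B and C. The 3 libraries of each genotype lay close together, and every lon1-1 library stood far above every wt library. Means were 6.47 ± 0.0945 FPKM in lon1-1 and 2.67 ± 0.108 FPKM in wt (SD, n = 3 each), a 2.42-fold difference in mean level. On the log2(FPKM + 1) scale the fold change was 1.02 (SE 0.0546, 95% interval 0.90 to 1.15, limma adjusted p = 9.86e-08), and limma's test against a 1.5-fold change gave an adjusted p of 0.000104. The values stood for about 678 to 712 fragments per library in lon1-1 and 258 to 280 in wt, counted on the shorter of its 2 transcripts. Its end lies 34 bases into AT1G68980 on the other strand, which had 3.74, 3.16 and 3.26 FPKM in lon1-1 and 3.3, 3.52 and 3.3 FPKM in wt and did not pass (limma adjusted p = 0.975).

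RPOTP (AT2G24120, chr2:10248851-10254641, minus strand), the polymerase of plastids that reads housekeeping genes such as those for the PEP core, had 7.42, 7.6 and 7.42 FPKM in lon1-1 A, B and C, against 4.72, 4.14 and 4.75 FPKM in wt A, B and C. All lon1-1 libraries were above all wt libraries, and wt B was the lowest of the 6. The means of 7.48 ± 0.104 FPKM in lon1-1 and 4.54 ± 0.344 FPKM in wt (SD, n = 3 each) differed 1.65-fold, with a log2 fold change of 0.62 (SE 0.0591, 95% interval 0.48 to 0.75, limma adjusted p = 6.48e-06). Of its 3 transcripts in the table, 1 was a model added by the authors. RPOTP was the most abundant RPOT transcript in both genotypes.

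RPOTMP (AT5G15700, chr5:5114761-5121841, minus strand), which goes to both organelles and is known for roles early in seedling development, was the least abundant polymerase transcript. It had 2.26, 2.71 and 2.42 FPKM in lon1-1 A, B and C, against 1.47, 1.54 and 1.71 FPKM in wt A, B and C. The lowest lon1-1 library stood above the highest wt library, with more scatter for its level than in RPOTM. Means were 2.46 ± 0.228 FPKM in lon1-1 and 1.57 ± 0.123 FPKM in wt (SD, n = 3 each), 1.57-fold apart, and the log2 fold change was 0.43 (SE 0.0743, 95% interval 0.26 to 0.59, limma adjusted p = 0.000452).

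The 3 polymerase genes together summed to 16.04, 16.81 and 16.38 FPKM in lon1-1 A, B and C and to 8.94, 8.4 and 9.01 FPKM in wt A, B and C, a ratio of means of 1.87. RPOTM made up 39.4 ± 0.662% of that sum in lon1-1 and 30.5 ± 2.05% in wt, RPOTP 45.6 ± 0.581% in lon1-1 and 51.6 ± 2.0% in wt, and RPOTMP 15.0 ± 1.03% in lon1-1 and 17.9 ± 1.32% in wt (SD, n = 3 each). RPOTM thus took a larger part of the polymerase transcripts in every lon1-1 library. The RPOTM to RPOTP ratio within a library was 0.857, 0.855 and 0.881 in lon1-1 and 0.583, 0.657 and 0.537 in wt, and the RPOTM to RPOTMP ratio was 2.81, 2.4 and 2.7 in lon1-1 and 1.87, 1.77 and 1.49 in wt. In both of these ratios the genotypes were fully apart, with log2 differences of 0.55 and 0.63 and an exact two-sided permutation p of 0.1 each (0.15 adjusted over the 3 pairs), 0.1 being the smallest p that 3 libraries against 3 can give. The RPOTP to RPOTMP ratio of 3.28, 2.8 and 3.07 in lon1-1 overlapped the 3.21, 2.69 and 2.78 in wt (log2 difference 0.08, exact permutation p = 0.5, adjusted p = 0.5).

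**Figure D2:**
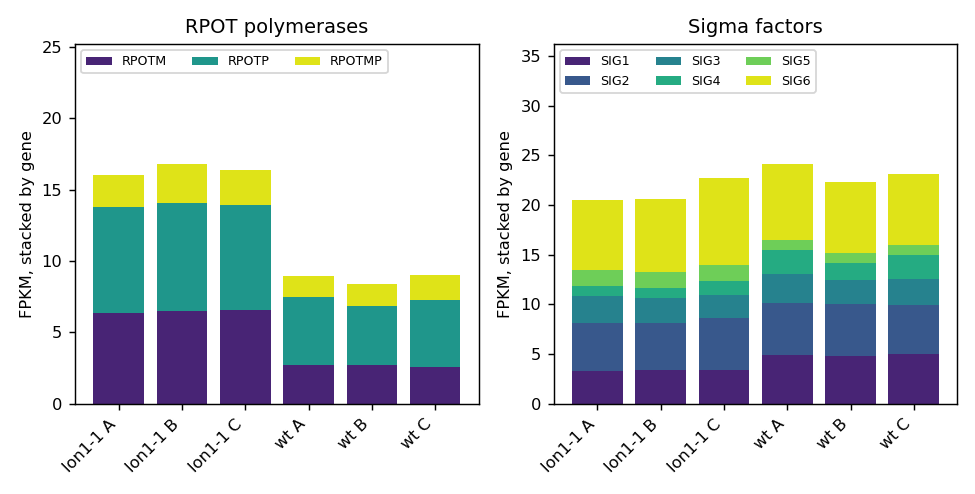
FPKM of the 3 polymerase genes (left) and of the 6 sigma factor genes (right), stacked by gene for each library (x axis, lon1-1 A to C and then wt A to C). The polymerase bars reach 16.04 to 16.81 FPKM in lon1-1 and 8.4 to 9.01 FPKM in wt, while the sigma factor bars reach 20.55 to 22.69 FPKM in lon1-1 and 22.28 to 24.14 FPKM in wt.

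The sequences before the annotated starts of the polymerase genes are shown because these genes were higher together; those of SIG4 and SIG5 follow because these sigma factor genes moved in opposite directions. Each is the 250 bases upstream of the gene's first annotated base in RefSeq TAIR10.1, written 5′ to 3′ on the gene's own strand; all 5 genes lie on the minus strand. Capitals mark matches to the motifs searched on both strands: site II elements (TGGGCC and TGGGCT), the I-box (GATAAG), the evening element (AAAATATCT) and the ACGT core.
RPOTM, chr1:25940997-25941246: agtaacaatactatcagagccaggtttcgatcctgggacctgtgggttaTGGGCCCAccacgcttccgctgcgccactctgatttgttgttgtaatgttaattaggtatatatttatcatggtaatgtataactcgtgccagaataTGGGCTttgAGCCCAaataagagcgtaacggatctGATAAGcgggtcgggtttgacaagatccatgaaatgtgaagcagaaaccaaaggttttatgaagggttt
RPOTP, chr2:10254642-10254891: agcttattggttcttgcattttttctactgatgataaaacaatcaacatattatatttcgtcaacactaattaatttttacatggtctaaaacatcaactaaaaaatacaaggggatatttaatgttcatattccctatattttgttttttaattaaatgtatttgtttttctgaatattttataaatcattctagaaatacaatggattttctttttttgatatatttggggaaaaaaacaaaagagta
RPOTMP, chr5:5121842-5122091: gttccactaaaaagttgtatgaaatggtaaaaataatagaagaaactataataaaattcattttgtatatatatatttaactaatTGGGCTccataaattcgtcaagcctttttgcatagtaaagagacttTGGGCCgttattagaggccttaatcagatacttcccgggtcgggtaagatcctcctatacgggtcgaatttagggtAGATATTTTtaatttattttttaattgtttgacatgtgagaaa
SIG4, chr5:4430902-4431151: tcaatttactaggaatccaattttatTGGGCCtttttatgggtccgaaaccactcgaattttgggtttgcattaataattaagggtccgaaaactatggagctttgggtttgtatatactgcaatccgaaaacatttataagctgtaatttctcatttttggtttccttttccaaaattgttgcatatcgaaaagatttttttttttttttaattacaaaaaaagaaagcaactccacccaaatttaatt
SIG5, chr5:8160344-8160593: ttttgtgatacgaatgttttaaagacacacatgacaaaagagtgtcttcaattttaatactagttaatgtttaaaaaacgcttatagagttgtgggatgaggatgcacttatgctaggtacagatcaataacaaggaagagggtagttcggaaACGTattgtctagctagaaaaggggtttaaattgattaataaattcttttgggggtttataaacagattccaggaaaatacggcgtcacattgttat
The far end of the RPOTM stretch overlaps the tRNA gene AT1G69000 on the opposite strand, and its TGGGCC matches, 1 on each strand, overlap in TGGGCCCA and lie inside that tRNA gene.

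Site II elements are known from the promoters of many genes for organelle and ribosomal proteins, and the ACGT core and the G-box (CACGTG, which contains it) from genes regulated by light and abscisic acid. The element TGGGCC was found upstream of 6 of the 9 genes (RPOTM, RPOTMP, SIG1, SIG2, SIG4 and SIG6) and in 14.8% of the 23950 stretches of the same length in the genome, the RPOTM match being the one within the tRNA gene. TGGGCT was found upstream of RPOTM, RPOTMP and SIG6, against 13.0% of all stretches. Other stretches overlap annotated genes too. The SIG1 stretch lies almost wholly in AT1G64850, with its TGGGCC matches. The SIG3 stretch lies wholly in AT3G00910, with all its matches. The SIG6 TGGGCT matches lie in AT2G37000, and its TGGGCC match lies at the edge of that gene. The far end of the SIG2 stretch overlaps AT1G08530, away from its matches. The RPOTP stretch held none of the motifs searched. The ACGT core was found upstream of SIG5 and SIG3 (44.6% of all stretches), the I-box upstream of RPOTM and SIG3 (12.3%) and the evening element upstream of RPOTMP and SIG3 (2.5%). SIG3, which holds all of them, did not pass the test. Neither the G-box (7.1% of all stretches), the telo box (AAACCCTAA, 2.3%) nor the mitochondrial dysfunction motif (1.7%), known from genes that respond to mitochondrial stress, was found upstream of any of the 9 genes. Of the genes with the TGGGCC element, SIG1 and SIG4 were lower, SIG2 and SIG6 did not pass, and RPOTM and RPOTMP were higher. A part of any of these motifs in the changes was not tested.

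SIG1 (AT1G64860, chr1:24097736-24100970, plus strand), a sigma factor known to act on psaA, had 3.28, 3.43 and 3.44 FPKM in lon1-1 A, B and C, against 4.87, 4.8 and 5.03 FPKM in wt A, B and C. The genotypes were well apart and each was tight. Its mean was 3.38 ± 0.0896 FPKM in lon1-1 and 4.9 ± 0.118 FPKM in wt (SD, n = 3 each), 1.45-fold higher in wt, with a log2 fold change of -0.43 (SE 0.0544, 95% interval -0.55 to -0.31, limma adjusted p = 4.99e-05).

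SIG4 (AT5G13730, chr5:4429095-4430901, minus strand), known as the sigma factor for ndhF, a subunit of the plastid NDH complex, had 1.02, 0.99 and 1.41 FPKM in lon1-1 A, B and C, against 2.39, 1.75 and 2.32 FPKM in wt A, B and C. The groups did not overlap, though lon1-1 C was the highest of its genotype and wt B the lowest of its own. Means were 1.14 ± 0.234 FPKM in lon1-1 and 2.15 ± 0.351 FPKM in wt (SD, n = 3 each), 1.89-fold higher in wt, and the log2 fold change was -0.56 (SE 0.105, 95% interval -0.80 to -0.32, limma adjusted p = 0.00078). These levels rest on few fragments, about 45, 44 and 63 in lon1-1 and 100, 74 and 97 in wt. With 0.1 in place of 1 added to FPKM, the log2 fold change of SIG4 was -0.87. SIG4 shares 201 bases with AT5G13720 on the opposite strand, which had 0.94, 0.68 and 0.8 FPKM in lon1-1 and 3.13, 2.35 and 2.58 FPKM in wt and was lower too (log2 fold change -1.03, limma adjusted p = 4.47e-06). The libraries were stranded, but how the authors counted strand is not given in the sources used here, so reads from the shared bases may have gone to either gene.

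SIG5 (AT5G24120, chr5:8157151-8160343, minus strand), the sigma factor known to be induced by light and stress and to act at the light-responsive promoter of psbD, was the sigma factor gene called higher. It had 1.67, 1.58 and 1.62 FPKM in lon1-1 A, B and C, against 1.03, 1.04 and 1.02 FPKM in wt A, B and C. Every lon1-1 library was above every wt library, with little scatter in either genotype. The mean level was 1.62 ± 0.0451 FPKM in lon1-1 and 1.03 ± 0.01 FPKM in wt (SD, n = 3 each), 1.58-fold apart, for a log2 fold change of 0.37 (SE 0.0644, 95% interval 0.23 to 0.51, limma adjusted p = 0.000462). With 0.1 added instead of 1 the log2 fold change was 0.61.

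The remaining sigma factors are SIG2, known for transcribing plastid tRNA genes, SIG3, known for psbN, and SIG6, a general sigma factor of greening cotyledons. SIG2 (AT1G08540, chr1:2703295-2706860, plus strand) had 4.9, 4.69 and 5.16 FPKM in lon1-1 A, B and C, against 5.32, 5.22 and 4.92 FPKM in wt A, B and C. SIG3 (AT3G53920, chr3:19960789-19963980, minus strand) had 2.64, 2.57 and 2.36 FPKM in lon1-1 A, B and C, against 2.87, 2.41 and 2.66 FPKM in wt A, B and C. In both genes the ranges of the genotypes overlapped. The log2 fold change of SIG2 was -0.06 (95% interval -0.19 to 0.07, limma adjusted p = 0.383), and 2 of its 3 transcripts were models added by the authors. For SIG3 the log2 fold change was -0.05 (95% interval -0.21 to 0.11, limma adjusted p = 0.546). SIG6 (AT2G36990, chr2:15537225-15540139, minus strand) had 7.04, 7.37 and 8.7 FPKM in lon1-1 A, B and C, against 7.66, 7.06 and 7.19 FPKM in wt A, B and C, so that lon1-1 C stood above the other 5 libraries, which overlapped. Its log2 fold change was 0.06 (95% interval -0.10 to 0.23, limma adjusted p = 0.44).

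**Figure D3:**
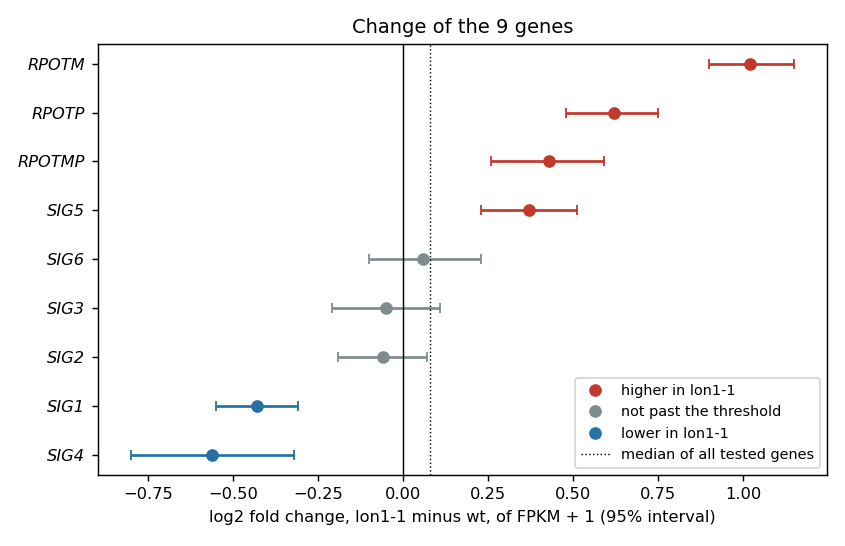
Log2 fold change of each gene, lon1-1 minus wt, of FPKM + 1 (x axis), with 95% intervals from the limma fit; the dotted line is the median of all tested genes, 0.08. RPOTM lies farthest to the right at 1.02 and SIG4 farthest to the left at -0.56, and the intervals of SIG2, SIG3 and SIG6 include 0.

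The 6 sigma factor genes together summed to 20.55, 20.63 and 22.69 FPKM in lon1-1 A, B and C and to 24.14, 22.28 and 23.14 FPKM in wt A, B and C, a ratio of means of 0.918 with ranges that overlapped. Within that sum SIG6 was the largest part in both genotypes, 36.1 ± 2.07% in lon1-1 and 31.5 ± 0.369% in wt (SD, n = 3 each). SIG1 made up 15.9 ± 0.734% in lon1-1 and 21.2 ± 0.852% in wt, and SIG4 5.33 ± 0.774% in lon1-1 and 9.26 ± 1.22% in wt. SIG5 made up 7.64 ± 0.494% in lon1-1 and 4.45 ± 0.203% in wt, so that SIG5 was above SIG4 in lon1-1 and below it in wt. The parts of SIG2 (23.1 ± 0.639% in lon1-1, 22.2 ± 1.1% in wt) and SIG3 (11.9 ± 1.31% in lon1-1, 11.4 ± 0.542% in wt) were close between the genotypes.

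By mean FPKM, which is per transcript length, the order in lon1-1 was SIG6 (7.7), RPOTP (7.48), RPOTM (6.47), SIG2 (4.92), SIG1 (3.38), SIG3 (2.52), RPOTMP (2.46), SIG5 (1.62) and SIG4 (1.14). In wt it was SIG6 (7.3), SIG2 (5.15), SIG1 (4.9), RPOTP (4.54), RPOTM (2.67), SIG3 (2.65), SIG4 (2.15), RPOTMP (1.57) and SIG5 (1.03). Neighbours whose libraries overlapped were SIG6 with RPOTP and SIG3 with RPOTMP in lon1-1, and SIG2 with SIG1 and RPOTM with SIG3 in wt, and these did not differ beyond their spread. RPOTP and RPOTM were above SIG2 and SIG1 in lon1-1 and below them in wt. All 9 genes lay below the median level of the genes tested, which was 10.2 FPKM in lon1-1 and 9.66 FPKM in wt. RPOTM stood at the 36.8th percentile of tested genes in lon1-1 and at the 17.4th in wt, RPOTP at the 41.1st in lon1-1 and the 28.9th in wt, and SIG4 at the 4.04th in lon1-1 and the 13.3rd in wt.

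Genes with the profile most like that of RPOTM over the 6 libraries, by Euclidean distance between log2(FPKM + 1) values less the wt mean, were AT5G02240 (distance 0.0362), AT5G14520 (0.0567) and AT2G32580 (0.0569). AT5G02240 averaged 81.5 FPKM in lon1-1 and 39.3 FPKM in wt. In mean FPKM AT5G02240, AT5G14520 and AT2G32580 were 2.07-, 2.09- and 2.08-fold higher in lon1-1, against 2.42-fold for RPOTM. The added 1 shrinks the change of RPOTM more, because its level is lower. For SIG4 the nearest were AT3G15780 (0.13), EDA36 (0.138) and AT5G08360 (0.154). These are likenesses over 6 libraries in 2 genotypes and are given as a description.

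The PEP-associated proteins, or PAPs, are needed for full activity of PEP. All 12 PAP genes were tested, and 7 were higher, 1 was lower and 4 did not pass (66.7% called, against 77% of all tested genes; median log2 fold change 0.19, against 0.08). FLN1 (PAP6), a fructokinase-like protein, averaged 7.4 ± 0.768 FPKM in lon1-1 and 3.89 ± 0.339 FPKM in wt (log2 fold change 0.78, limma adjusted p = 1.1e-05). PTAC10 (PAP3), a protein with an RNA-binding domain, averaged 6.65 ± 0.313 FPKM in lon1-1 and 3.77 ± 0.275 FPKM in wt (0.68, limma adjusted p = 4.77e-06). PTAC12 (PAP5, also HEMERA), which acts in phytochrome signalling as well, averaged 5.88 ± 0.101 FPKM in lon1-1 and 3.39 ± 0.137 FPKM in wt (0.65, limma adjusted p = 2.41e-06). The iron superoxide dismutase gene FSD2 (PAP9) was higher as well, at 7.29 ± 0.276 FPKM in lon1-1 and 4.39 ± 0.447 FPKM in wt (0.62, limma adjusted p = 1.61e-05). PTAC7 (PAP12) was the one PAP gene that was lower, at 8.33 ± 0.224 FPKM in lon1-1 and 11.8 ± 0.259 FPKM in wt (SD, n = 3 each; log2 fold change -0.46, limma adjusted p = 6.84e-06). The call for TRXZ (PAP10), a plastid thioredoxin, was borderline (0.17, limma adjusted p = 0.0385) and was lost without any 1 of wt B, wt C or lon1-1 A, B or C, with adjusted p of 0.0532 to 0.133. Median-ratio, upper-quartile and nuclear-sum scaling lost it too (limma adjusted p = 0.202, 0.0671 and 0.053), as did testing without the filter (0.064). PTAC2 (PAP2), a pentatricopeptide repeat protein, did not pass (-0.14, limma adjusted p = 0.0773) but did so as lower without lon1-1 B (-0.19, adjusted p = 0.0277). It also passed as lower with median-ratio scaling (limma adjusted p = 0.0173), upper-quartile scaling (0.0468) or no mean-variance trend (0.0449).

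Among 7 proteins known to bind or modify sigma factors or PEP, 6 were tested, 2 were higher, 2 were lower and 2 did not pass (66.7% called, against 77% of all tested genes). FLN2, the paralog of FLN1, averaged 4.13 ± 0.326 FPKM in lon1-1 and 2.2 ± 0.193 FPKM in wt (log2 fold change 0.68, limma adjusted p = 1.48e-05). DG1, a pentatricopeptide repeat protein that binds SIG6, averaged 7.06 ± 0.312 FPKM in lon1-1 and 5.93 ± 0.2 FPKM in wt (0.22, limma adjusted p = 0.00393). SIB2, a sigma factor binding protein, was lower at 16.3 ± 0.381 FPKM in lon1-1 and 19.7 ± 0.504 FPKM in wt (-0.26, limma adjusted p = 0.000154). The chloroplast sensor kinase gene CSK was lower too, at 3.34 ± 0.136 FPKM in lon1-1 and 4.0 ± 0.232 FPKM in wt (-0.21, limma adjusted p = 0.0115). PRIN2, a protein of redox control of PEP, scattered widely, with 81.99, 69.53 and 56.44 FPKM in lon1-1 A, B and C and 49.6, 68.21 and 47.45 FPKM in wt A, B and C, and did not pass (limma adjusted p = 0.0661). It passed as higher without wt B (0.00608), without lon1-1 C (0.0126) or with all libraries scaled to the same sum (0.0361). SIB1, which was under the filter, had 0.21, 0.18 and 0.25 FPKM in lon1-1 and 0.41, 0.48 and 0.44 FPKM in wt.

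Of 15 genes for keeping and copying organelle DNA, the template of these polymerases, 12 were higher, 1 was lower and 2 did not pass (86.7% called, against 77% of all tested genes; median log2 fold change 0.38, against 0.08). GYRA, the gyrase A subunit of both organelles, averaged 10.3 ± 0.234 FPKM in lon1-1 and 3.98 ± 0.269 FPKM in wt, 2.58-fold apart (log2 fold change 1.18, limma adjusted p = 4.26e-08), and of this list it alone passed the test against 1.5-fold. The gyrase B genes were also higher. GYRB2 averaged 6.94 ± 0.303 FPKM in lon1-1 and 3.91 ± 0.131 FPKM in wt (0.69, limma adjusted p = 1.69e-06). GYRB1 averaged 6.2 ± 0.131 FPKM in lon1-1 and 3.91 ± 0.0889 FPKM in wt (0.55, limma adjusted p = 5.5e-06). RECA2, an organelle recombinase, averaged 2.14 ± 0.182 FPKM in lon1-1 and 1.16 ± 0.338 FPKM in wt (0.55, limma adjusted p = 0.00112). The plastid recombinase gene RECA1 was lower, at 6.46 ± 0.188 FPKM in lon1-1 and 7.94 ± 0.393 FPKM in wt (SD, n = 3 each; -0.26, limma adjusted p = 0.00127). OSB1, a mitochondrial single-stranded DNA binding protein, was called higher (0.20, limma adjusted p = 0.017). It was not called without wt B (0.0608), without lon1-1 B (0.0683) or with median-ratio scaling (0.0934).

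The mTERF proteins, relatives of a mitochondrial transcription termination factor, work in gene expression in both organelles. The 37 genes whose annotation holds the phrase transcription termination factor were taken as the family, AT5G63135 on that phrase alone. Of these, 35 had a row and 32 were tested. Among them 6 were higher, 7 were lower and 19 did not pass (40.6% called, against 77% of all tested genes). Their median log2 fold change was -0.09, against 0.08. The count of lower genes depended on the setting: it was 4 without wt A or without lon1-1 B, 13 with median-ratio scaling, and 11 with upper-quartile scaling or without the mean-variance trend. A filter of 5 FPKM, which tests fewer genes, left 0 higher and 2 lower. The test against 1.5-fold left 0 higher and 0 lower. Among the family's genes that passed the test, the largest changes were in AT5G63135, with 5.02 ± 0.565 FPKM in lon1-1 and 3.3 ± 0.258 FPKM in wt (0.48, limma adjusted p = 0.000325), and in pde191 (AT4G38160), with 10.3 ± 0.572 FPKM in lon1-1 and 14.7 ± 0.321 FPKM in wt (-0.47, limma adjusted p = 1.06e-05). EMB3114 (AT2G36000) averaged 6.94 ± 0.3 FPKM in lon1-1 and 9.82 ± 0.293 FPKM in wt (-0.45, limma adjusted p = 2.03e-05), and AT1G62150 averaged 2.2 ± 0.0862 FPKM in lon1-1 and 1.44 ± 0.214 FPKM in wt (SD, n = 3 each; 0.40, limma adjusted p = 0.00113). Over these 4 lists of partners together, 65 genes were tested, 27 were higher and 11 were lower (58.5% called, against 77% of all tested genes), with a median log2 fold change of 0.04, against 0.08.

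**Figure D4:**
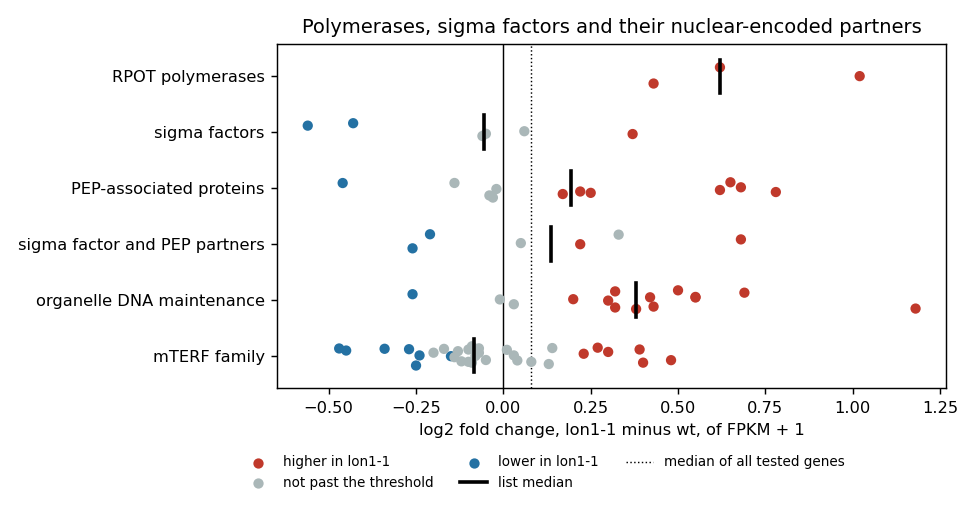
Log2 fold change, lon1-1 minus wt, of FPKM + 1 (x axis) of each tested gene in the polymerases, the sigma factors and the 4 lists of nuclear-encoded partners (rows); colours mark the limma call, thick lines are list medians and the dotted line is the median of all tested genes. The polymerase median lies at 0.62, that of organelle DNA maintenance at 0.38, and those of the sigma factors and the mTERF family at -0.05 and -0.09.

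Plastid and mitochondrial genes known as targets give the other side of this machinery. For SIG1 the known target psaA averaged 427 ± 35.8 FPKM in lon1-1, against 2025, 2083 and 2170 FPKM in the wt libraries (log2 fold change -2.29, limma adjusted p = 7.44e-10). The SIG3 target psbN had 745, 806 and 611 FPKM in lon1-1 and 1721, 1779 and 2223 FPKM in wt (-1.40, limma adjusted p = 1.84e-06), while SIG3 itself did not pass. For SIG4 the target ndhF averaged 27.9 ± 1.86 FPKM in lon1-1 and 42.4 ± 2.33 FPKM in wt (-0.59, limma adjusted p = 5.06e-06). The SIG5 target psbD was lower in lon1-1, at 407, 452 and 323 FPKM, against 1155, 1329 and 1332 FPKM in wt (-1.70, limma adjusted p = 3.28e-07), while SIG5 was higher. The SIG2 target psaJ was listed at 0 in 5 of the 6 libraries and was not tested. All 7 tested genes of the list known to be read mainly by PEP were lower, against 32.3% of all tested genes (median -1.77, against 0.08). The listed gene psbA had no row under its annotated name. An added model described as its protein averaged 6120 ± 263 FPKM in lon1-1 and 21500 ± 334 FPKM in wt (-1.81, limma adjusted p = 7.82e-09). These lower plastid transcripts stood beside the lower green cotyledon markers given above, whose part in them was not tested. Of the PEP core genes, rpoA averaged 246 ± 14.8 FPKM in lon1-1 and 140 ± 5.19 FPKM in wt (0.81, limma adjusted p = 1.62e-07). The core genes rpoC1 and rpoC2, which NEP reads, both had a log2 fold change of 0.38 (limma adjusted p = 1.78e-05 and 0.000142). It was smaller in accD and ycf2, which NEP reads too, at 0.12 and 0.17 (limma adjusted p = 0.00731 and 0.00756). The table lists rpoB under its annotated model, at 0 in all lon1-1 libraries and at 5.01, 5.18 and 4.78 FPKM in wt, and under an added model that had 84.69, 101.8 and 89.25 FPKM in lon1-1 and 80.85, 84.96 and 85.26 FPKM in wt. The models together averaged 91.9 ± 8.86 FPKM in lon1-1 and 88.7 ± 2.44 FPKM in wt. The mitochondrial genes known to be lower in RPOTMP mutants were higher in lon1-1 in 3 of 3 cases, where 44.7% of all tested genes were called higher. A part of RPOTMP in this was not tested. Among them nad2 averaged 46.9 ± 2.73 FPKM in lon1-1 and 23.0 ± 1.48 FPKM in wt (SD, n = 3 each; 1.00, limma adjusted p = 1.15e-07). The genes nad6 and cox1 had log2 fold changes of 0.38 and 0.48.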

How the data were processed

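Total RNA of 6 samples, 3 lon1-1 and 3 wt, was depleted of ribosomal RNA and made into stranded libraries, per the labels' protocols. The authors deposited 1 table of FPKM to 2 decimals; the submitters' processing notes name HISAT2, Bowtie2, RSEM and TAIR10 without versions. All 44279 RefSeq transcript names and all 100 organelle gene names in the table were found in TAIR10.1, from which loci, positions and sequences were taken; 41 of 24193 rows are models added by the authors.

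Genotypes were compared with limma 3.58.1 in R 4.3.3 (eBayes, trend = TRUE) after a log2 transform of FPKM + 1. A gene was tested if 3 or more libraries reached 1 FPKM, with Benjamini-Hochberg adjustment over all 18308 genes and a threshold of 0.05. Fold changes include the added 1 and understate the change of low genes. Although the rule for the 9 genes uses only their loci, they and the lists were chosen with earlier results of these data known. Named were all 9 genes, LON1, up to 4 called genes with the largest absolute change per list, 3 nearest profiles for the largest rise and fall, and known organelle targets; others named were chosen after their values were seen, because they were the exception in a list or their call changed with 1 library. Depth was estimated, since the table holds no counts, from the steps of low FPKM on a grid of 250000 fragments, so fragment numbers are approximate and give no interval. In a simulation of the lon1-1 against wt comparison on 18299 genes, 94% of 100 genes changed 1.5-fold and 97% of 100 changed 2-fold were recovered. It called 5 unchanged genes. Only these few genes were changed in it, against 77% called in the data, and each gene had the spread typical of its level. Its rates may therefore differ from those of the real comparison. Other scalings, filters, added constants, a replicate block and leaving out each library were tried. Sequences were searched with Python 3.11.15.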

Additional observations from a re-analysis of the deposited data

How the results depend on the processing

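The 9 genes kept their direction where called, and their side of the threshold, under each added constant, each of 4 other scalings, no filter, no trend, the replicate block and the loss of any 1 library. The exceptions were the test against 1.5-fold, which left 1 gene higher and 0 lower, and a filter of 5 FPKM, which tested 4 genes and left 2 higher and 0 lower. Over all genes the test against 1.5-fold called 1525 higher and 1408 lower. Over the 4 lists of partners, the filter of 5 FPKM left 14 higher and 5 lower, the test against 1.5-fold left 1 higher and 0 lower, and median-ratio scaling gave 18 lower. Neighbours with overlapping ranges in the order of levels numbered 1 to 2 in lon1-1 and 1 to 2 in wt when 1 library was left out (1 without lon1-1 C and 1 without wt C). The scalings moved the median of all genes by -0.077 to 0.053 on the log2 scale, and 50% of all calls were higher with median-ratio scaling, against 58% as reported. Same-letter libraries did not deviate together (correlations of 0.06, 0.017 and -0.032), so the letters were not taken as pairs; with the replicate block 8145 genes were higher and 5901 lower, RPOTM had a log2 fold change of 1.02, PRIN2 passed as higher (limma adjusted p = 0.0193), AT5G55580 of the mTERF family was no longer called lower (0.0588), and no other of 75 genes changed its call. Values near 1 FPKM, as in SIG4 and SIG5, rest on about 44 to 114 estimated fragments in each library, and 3 libraries per genotype limit every interval.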

Other observations

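Among mTERF family genes under the filter, AT2G34620 was listed at 0, 0.03 and 0.05 FPKM in lon1-1 A, B and C and at 0.65, 0.59 and 0.48 FPKM in wt A, B and C; it was chosen after its values were seen and was not tested.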
